A study of Mus musculus with 622 samples.

Results

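Cells that carried both insulin and glucagon RNA made up 64 of the 593 islet cells that passed the filter, or 10.8% (exact Clopper-Pearson 95% interval 8.41% to 13.6%, counting error only), among 622 cells in all. The filter asked for 1000 genes or more at a level of 1 RPKM, the read count of a gene scaled by its length and by the number of reads of its cell. A passing cell was called dual when Ins1 plus Ins2 and Gcg were the 2 largest of 4 hormone values (Ins1 plus Ins2, Gcg, Sst, Ppy) and the smaller of them held at least 10% of the sum. The comparison groups were 395 insulin-only cells and 33 glucagon-only cells, whose leading hormone held at least 90% of that sum. These hormone values chose the cells, so they are given as a description.

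In the mouse islet, insulin is made by beta cells and glucagon by alpha cells. Insulin lowers blood glucose by driving its uptake and storage, and glucagon raises it by driving glucose release from the liver. Each cell type keeps its own set of transcription factors: Irx genes among others in alpha cells, Pdx1 and Nkx6-1 in beta cells. Both types share a set of endocrine regulators and the machinery of secretory granules.

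All cells came from pancreatic islets of wild-type C57BL/6 mice. Cells were caught on the Fluidigm C1, a microfluidic device that lyses each captured cell and amplifies its cDNA in a separate chamber. Every cell carried the same labels, with no animal, age, chip, capture site or treatment named, so all cells counted as 1 sample and no test across replicates was possible. No doublet caller was run, and whether a dual library came from 1 cell or from more than 1 was not tested.

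The upstream sequences of a hormone gene of each kind are shown because the dual cells are defined by the joint presence of their transcripts. Each run holds the 250 bases before the gene start, read 5′ to 3′ on the gene's strand, from the RefSeq promoter table (GRCm38.p6). Ins2 has no sequence shown. Capitals mark the homeodomain core TAAT and the E-box CATCTG, each searched on both strands (ATTA and CAGATG on the reverse), and the marked matches did not overlap.
Gcg: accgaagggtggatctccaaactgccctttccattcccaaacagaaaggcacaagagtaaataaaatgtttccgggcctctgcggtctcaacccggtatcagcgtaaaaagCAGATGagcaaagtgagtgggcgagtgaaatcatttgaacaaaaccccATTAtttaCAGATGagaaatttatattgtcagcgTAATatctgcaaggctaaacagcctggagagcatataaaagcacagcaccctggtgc
Ins1: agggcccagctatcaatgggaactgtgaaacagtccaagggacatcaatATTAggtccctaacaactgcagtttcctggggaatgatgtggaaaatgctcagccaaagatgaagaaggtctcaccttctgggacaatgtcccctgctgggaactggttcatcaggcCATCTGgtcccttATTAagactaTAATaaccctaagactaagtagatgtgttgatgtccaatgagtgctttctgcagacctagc
The Gcg run lies at chr2:62483654-62483903 on the minus strand and held 2 homeodomain cores and 2 E-boxes. The Ins1 run lies at chr19:52264047-52264296 on the plus strand and held 3 homeodomain cores and 1 E-box. Among 32817 promoters cut to the same length, 54.9% held the homeodomain core and 14.5% held the E-box, so the matches describe these letters only.

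In the dual cells, Gcg ran from 90.0 to 233027 RPKM with a median of 110689. Ins2 ran from 337 to 437012 RPKM with a median of 198806, and Ins1 from 47.1 to 57859 RPKM with a median of 21663. The median Gcg of insulin-only cells was 47.7 RPKM, and the median Ins2 of glucagon-only cells was 877 RPKM, which is the level of the other cell type's hormone that a single-hormone cell carried. Insulin was the larger hormone in 48 of the 64 dual cells and glucagon in 16. The second hormone held at least 25% of the sum in 39 dual cells, 6.58% of passing cells. Just inside the 10% limit lay cells at 11.6%, 11.8%, 12.3% and 12.3%, and just outside it cells at 9.98%, 7.02%, 6.79% and 6.54%.

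**Figure D1:**
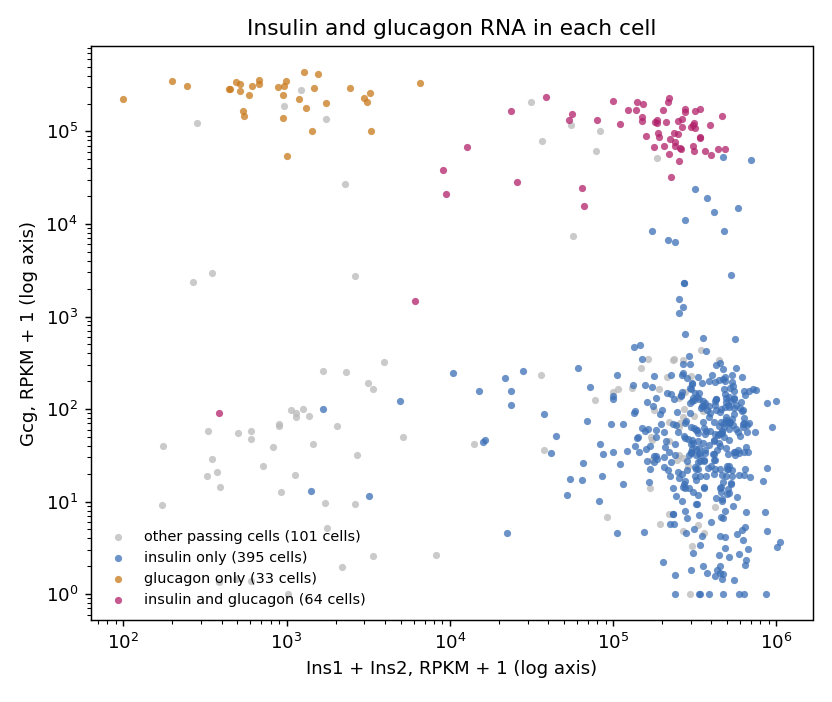
Insulin RNA (Ins1 plus Ins2, horizontal, RPKM + 1, log axis) against Gcg (vertical, RPKM + 1, log axis), with 1 point for each of the 593 passing cells, coloured by group. Most dual cells sit at the upper right, near the insulin level of the 395 insulin-only cells and the Gcg level of the 33 glucagon-only cells.

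Most dual cells were rich in hormone RNA, and 2 were not. The 4-hormone sum had a median of 323667 RPKM in dual cells, 357130 in insulin-only cells and 284665 in glucagon-only cells. The 2 dual cells under 10000 RPKM, at 586 and 7735, held 12 and 13 of the 13 immune markers at 10 RPKM or more, with Lyz2, the macrophage lysozyme, at 39500 and 15235 RPKM. Another dual cell held 4 of 10 stellate and fibroblast markers at 10 RPKM. Cells with 3 or more markers of immune, endothelial, stellate and fibroblast, acinar or glial cells at 10 RPKM numbered 3 of the dual, 24 of the insulin-only and 2 of the glucagon-only cells. Leaving them out changed no count past 2-fold by more than 1.5 times. Ductal markers were counted apart, since many cells of every group held them: 3 or more of 10 reached 10 RPKM in 41 dual (64.1%), 196 insulin-only (49.6%) and 12 glucagon-only cells (36.4%). Their summed level ran from 1.11 to 3469 RPKM in dual cells with a median of 232, against medians of 196 in insulin-only and 291 in glucagon-only cells. The keratin genes Krt7, Krt8 and Krt18 and the secreted protein gene Spp1 had the highest means, while Krt19 reached 1 RPKM in 1 dual cell and Cftr was listed at 0 in all of them. Counts were not repeated without these cells, and the part of the ductal markers in the results was not tested.

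Pancreatic polypeptide RNA was often present beside the pair. Ppy held at least 1% of the hormone sum in 16 of 64 dual cells (25.0%), against 12 of 395 insulin-only cells (3.04%) and 5 of 33 glucagon-only cells (15.2%). Its mean was 4975 RPKM in dual cells, 221 in insulin-only cells and 2051 in glucagon-only cells, but the medians were 289, 13.6 and 241 RPKM. The highest value was 67864 RPKM in dual and 15782 RPKM in glucagon-only cells. Somatostatin reached 1% of the sum in 2 dual cells. Ppy and Sst were part of the rule, which sets how high they can be in each group.

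The columns of the table were in 2 number formats, 359 at full precision and 263 rounded to 4 decimals, which the labels do not mention. Dual cells were 44 of 340 passing full-precision cells (12.9%) and 20 of 253 rounded ones (7.91%). Depth, recovered as whole reads, had a median of 851081 in dual, 1130400 in insulin-only and 1142620 in glucagon-only cells. The share of RPKM in mitochondrially encoded genes had medians of 9.76%, 11.1% and 15.5% in the same order, and exceeded 50% in 3 dual cells.

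Dual cells held more detected genes than either single-hormone group, and over all columns their median depth was lower. In full-precision columns median depth was 703681 in dual, 809397 in insulin-only and 929080 in glucagon-only cells. In rounded columns it was 1599200, 1692810 and 1453600, so there dual cells were deeper than glucagon-only cells. The part of depth in the detected genes was not tested. The number of genes at 1 RPKM or more ran from 2448 to 7414 in dual cells with a median of 5918, against medians of 5259 in insulin-only and 4576 in glucagon-only cells. The ratio of medians was 1.13 to insulin-only cells and 1.29 to glucagon-only cells. After thinning each library to 250000 reads, medians of 6150.5, 5443 and 4647 genes had a read, and within each number format the order was the same. The 3 distributions overlapped, since insulin-only cells reached 9240 genes and glucagon-only cells 7515.

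Transcription factors of both cell types were found in the same libraries. Irx2, a homeobox gene of alpha cells, reached 1 RPKM in 29 of 64 dual cells (45.3%), in 19 of 33 glucagon-only cells (57.6%) and in 10 of 395 insulin-only cells (2.53%). Nkx6-1, a homeobox gene of beta cells, reached it in 43 dual cells (67.2%), in 272 insulin-only cells (68.9%) and in 4 glucagon-only cells (12.1%). Pdx1, which drives insulin transcription, reached it in 29 dual cells (45.3%), 238 insulin-only cells (60.3%) and 1 glucagon-only cell (3.03%).

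Taken per cell, at least 1 of the 3 alpha factors Irx1, Irx2 and Pou3f4 together with Nkx6-1 or Pdx1 was present in 37 of 64 dual cells (57.8%, exact interval 44.8% to 70.1%). The same pairing was present in 11 of 395 insulin-only cells (2.78%, 1.40% to 4.93%) and in 4 of 33 glucagon-only cells (12.1%, 3.40% to 28.2%), which set the background of such pairs. After thinning, with at least 1 read counted as present, the shares were 50% of 62 dual, 3.07% of 391 insulin-only and 9.38% of 32 glucagon-only cells. Mafa, a beta cell factor, had a mean of only 0.07 RPKM in insulin-only cells, so it could not be compared with its level in dual cells (0.07 RPKM).

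Genes of wider alpha and beta lists were also counted in each cell. Of 22 alpha and 22 beta list genes, which hold no hormone of the rule but were partly picked on these cells in earlier work, a dual cell had a median of 13 alpha and 16 beta genes at 1 RPKM. An insulin-only cell had medians of 3 and 16, and a glucagon-only cell 14 and 5. At least 3 genes of each list reached 1 RPKM in all 64 dual cells, but also in 316 insulin-only cells (80%) and in 31 glucagon-only cells (93.9%). With at least 1 read after thinning, the shares were 100% of 62, 86.7% of 391 and 96.9% of 32 cells. At 10 RPKM or more, where the groups were further apart, the medians were 8 and 12 in dual, 2 and 13 in insulin-only and 11 and 2 in glucagon-only cells. At least 3 genes of each list reached 10 RPKM in 62 of 64 dual cells (96.9%), in 154 insulin-only cells (39.0%) and in 12 glucagon-only cells (36.4%).

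**Figure D2:**
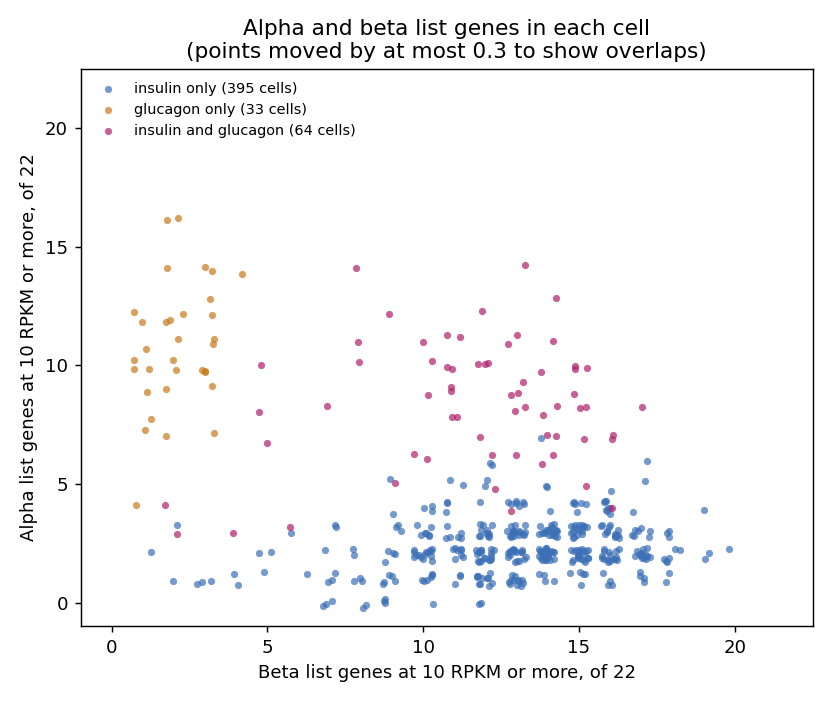
Number of the 22 beta list genes (horizontal) and of the 22 alpha list genes (vertical) at 10 RPKM or more in each cell, 1 point per cell, coloured by group. The dual cells, with medians of 12 beta and 8 alpha genes, lie above the insulin-only cells (13 and 2) and to the right of the glucagon-only cells (2 and 11).

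Alpha cell genes were among those higher in dual than in insulin-only cells. The ratio is that of group means on the log2(RPKM + 1) scale, which understates the difference of low genes, over genes whose mean reached 5 RPKM in either group and without Ins1, Ins2, Gcg, Sst and Ppy. Genes past a 2-fold ratio count as called. Of 7330 genes, 372 were called higher in dual cells (5.08%) and 262 lower (3.57%), 634 in all (8.65%), and the median of all genes was near 0. In the alpha list 17 of 18 genes tested were called higher and none lower, with a median log2 ratio of 3.11.

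Gpx3, a secreted glutathione peroxidase, ran from 4.45 to 1828 RPKM in dual cells with a median of 473. Its median was 0.840 RPKM in insulin-only cells, which reached 783, and 1107 RPKM in glucagon-only cells, which reached 3789. The log2 ratio of dual to insulin-only cells was 4.25, and all 64 dual cells were at 1 RPKM or more. Ttr, which encodes the thyroid hormone carrier transthyretin, ran from 6.67 to 37129 RPKM in dual cells around a median of 4402. Its medians were 380 RPKM in insulin-only and 11676 RPKM in glucagon-only cells, and the log2 ratio of dual to insulin-only means was 3.50. For both genes the groups overlapped, and the dual median lay between the other medians.

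Pdk4, the kinase that switches off pyruvate dehydrogenase, had the highest ratio among the named genes, 4.48. It was at 1 RPKM or more in 41 of 64 dual cells, 5 of 395 insulin-only cells and 28 of 33 glucagon-only cells, with means of 23.6, 0.101 and 35.3 RPKM. Higd1a, a hypoxia-inducible mitochondrial protein, had a log2 ratio of 4.47 and means of 39.8, 0.849 and 71.5 RPKM. The gluconeogenic enzyme gene Fbp1 had a log2 ratio of 3.42. Also among the 10 genes named as highest were Nudt11, Gm9790 and Dbpht2 at 3.89, 3.45 and 2.98, and Pyy, described further down. Without the cells of all 3 groups that carried other types' markers, the log2 ratio of Gm9790 was 5.02.

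Beta cell genes were somewhat lower in dual than in insulin-only cells, and Ins2, a gene of the rule, stood at -0.84. All 21 beta list genes tested lay below 0, and 6 of them were called lower and none higher, with a median of -0.78. Ucn3, a peptide that marks mature mouse beta cells, had a log2 ratio of -0.64, and Iapp, the islet amyloid peptide released with insulin, of -0.92. Both are below the 2-fold line. The 10 lowest genes by the naming rule were Kcnip1 (-1.45), Wasl, Dio1, Defb1, Wars, Fkbp11, Smim27, Prss53, Entpd3 (-1.16) and Ppp1r1a (-1.16). Kcnip1 is a potassium channel partner, and Entpd3 a surface ATP-hydrolysing enzyme. By cell medians Fkbp11 showed no lower value in dual cells (0.032).

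Beta cell genes were among those higher in dual than in glucagon-only cells. Of 7562 genes tested, 1471 were called higher in dual cells (19.5%) and 757 lower (10%), 2228 in all (29.5%), and the median of all genes was 0.14. With only 33 glucagon-only cells, means of low genes rest on few cells. In the beta list 19 of 20 genes tested were called higher and none lower, with a median log2 ratio of 4.52.

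Ucn3 ran from 0 to 1607 RPKM in dual cells with a median of 186, against a median of 0.635 and a highest value of 7.31 RPKM in glucagon-only cells. Its log2 ratio was 6.98, and insulin-only cells had a median of 350 RPKM. Pcsk1, the protease that begins the cutting of proinsulin, ran from 0 to 325 RPKM in dual cells with a median of 43.7, and no glucagon-only cell exceeded 4.19 RPKM. The log2 ratio was 5.85. Slc2a2, the glucose transporter of mouse beta cells, had medians of 46.4 RPKM in dual and 0.281 RPKM in glucagon-only cells, with a log2 ratio of 5.74. Most dual cells lay above every glucagon-only cell for these genes, but each gene was at 0 in some dual cell.

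Iapp ran from 61.4 to 74096 RPKM in dual cells with a median of 29508, and from 71.8 to 8270 RPKM in glucagon-only cells with a median of 273.5. Its log2 ratio was 5.41. The other genes named as highest were B830017H08Rik, Fam151a, Cox6a2, Prss53, Car15 and Sytl4, with log2 ratios from 5.08 (Sytl4) to 5.49 (B830017H08Rik). Cox6a2 is the heart and muscle isoform of a cytochrome c oxidase subunit, and Sytl4 encodes the granule docking protein granuphilin. Iapp, Slc2a2, Fam151a, Cox6a2 and Prss53 overlap another annotated gene, and since strand handling is not given, reads of overlapping genes cannot be told apart.

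Alpha list genes were lower in dual than in glucagon-only cells, all 21 tested lying below 0, 10 of them called lower, with a median of -0.99. Gpx3 had a log2 ratio of -1.08 and Ttr of -1.19. Slc38a5, a glutamine transporter, was at -1.88 and is the only alpha list gene among the 10 lowest by the naming rule. The others were Nipsnap1 (-2.44), Ifi35, Ilf2, Mfap2, Orc3, Alg11, Ppfibp1, Fam114a1 and the brain cytoplasmic RNA Bc1 (-1.83). Without the cells that carried other types' markers Orc3 was at -0.76, inside 2-fold. For Ilf2 and Alg11 the direction turned when cell medians replaced means, to 0.45 and 0.73.

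The last comparison set the dual cells beside a weighted mean of the single-hormone groups. The glucagon weight of a cell was its Gcg relative to the glucagon-only mean, divided by the sum of that value and its insulin relative to the insulin-only mean. It ran from 0.160 to 0.909 with a median of 0.407 and a mean of 0.446. The expected mean of a gene was then the weight times the glucagon-only mean plus the rest times the insulin-only mean, so that only the hormones set it. The 3 comparisons share the dual cells, and the weighted mean reuses both single-hormone groups.

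Alpha and beta list genes lay within 2-fold of the weighted mean, as did most of all genes. Of 7323 genes tested, 354 were called above it (4.83%) and 266 below it (3.63%), 620 in all (8.47%), with a median of 0.05. None of the 20 alpha list genes and none of the 21 beta list genes tested was called in either direction, with medians of 0.05 and 0.06. Gpx3 had a mean of 606 RPKM in dual cells and an expected 589, and Iapp 31912 against 33753. Ttr had 6616 against 7046, and Ucn3 285 against 248. The number formats moved the beta list median, from -0.18 in full-precision to 0.34 in rounded columns, so its closeness to 0 is an average over the formats.

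**Figure D3:**
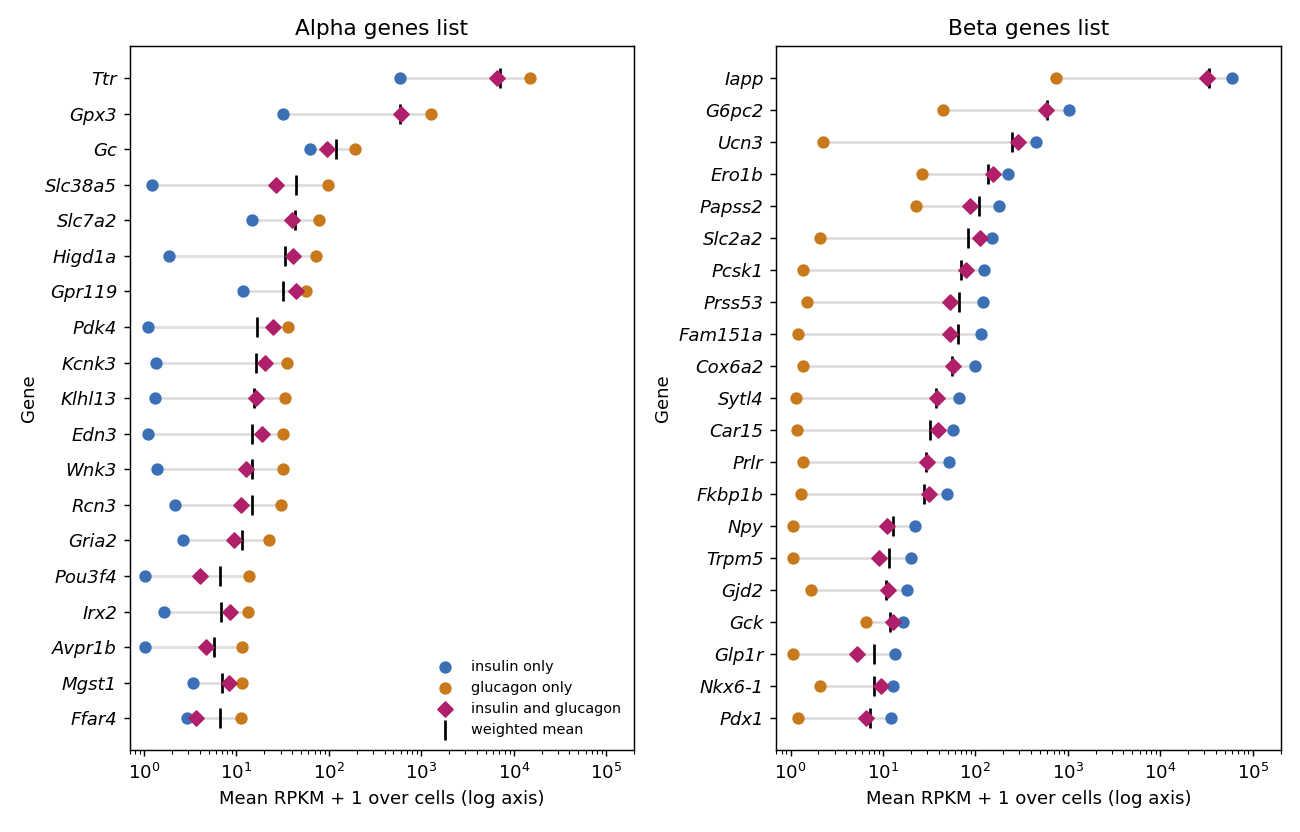
Mean RPKM + 1 (log axis) of the alpha list genes (left) and beta list genes (right) shown here that reach 5 RPKM in any group, ordered by the mean of the group where the list is high. Circles are single-hormone groups, diamonds the 64 dual cells, and vertical ticks the weighted mean. Diamonds lie between the circles and near the ticks, as for Gpx3 at 606 RPKM against an expected 589.

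The position of each gene between the single-hormone means was also taken on a linear scale, where 0 is the insulin-only and 1 the glucagon-only mean. The median position was 0.46 over 18 alpha list genes and 0.43 over 20 beta list genes that differed at least 4-fold between the groups, beside the mean weight of 0.446. With both number formats together, each of these 38 genes lay between the single-hormone means. Over all 743 genes that differed at least 4-fold, the median was 0.32 and 605 (81.4%) lay between. Of these, 223 reached 1 RPKM in 50% or more of the cells of the higher group. Over those 223 the median was 0.42 and 212 (95.1%) lay between. In the full-precision columns alone, the beta list had a median position of 0.53 and the alpha list of 0.45, beside a mean weight of 0.439. The closeness of the beta list to the weight is thus an average over the formats. In the rounded columns alone, the beta list had a median position of 0.22 and the alpha list of 0.46, beside a mean weight of 0.423. There 16 of 20 beta and 15 of 17 alpha list genes lay between the means.

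**Figure D4:**
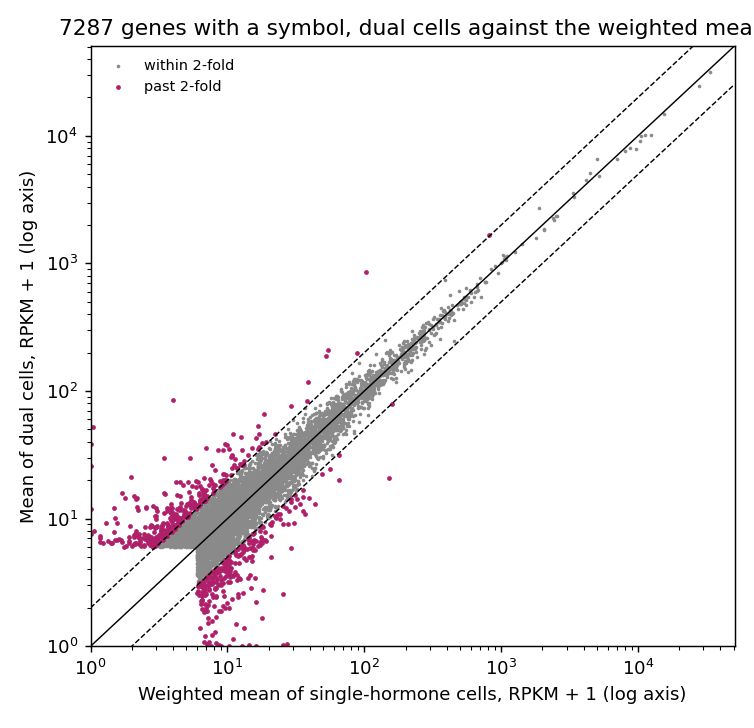
Mean of the 64 dual cells (vertical) against the weighted mean of single-hormone cells (horizontal), both RPKM + 1 on log axes, for the 7287 tested genes with a symbol. The solid line marks equality and the dashed lines 2-fold, past which 607 genes lie, mostly at low means.

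Across the dual cells, single genes followed the glucagon weight loosely. Over 64 cells, as a description, the summed RPKM of beta list genes had a Pearson correlation of -0.46 and a Spearman correlation of -0.44 with the weight, and the alpha list sum 0.10 and 0.18. All points share the hormone values and the scaling of each cell. In the 20 rounded cells alone the alpha list sum gave 0.49 and 0.57. The genes with the highest Spearman correlation with the weight were Gpx3 (0.48), Sf3b3 (0.47), Etv1 (0.43), Gnas (0.41) and Vps11 (0.41), and those with the lowest were Eif3m (-0.50), Hapln4 (-0.48), Marchf5 (-0.48), Cd47 (-0.45) and Degs1 (-0.44). They were picked as the extremes of a scan over many genes, which can be large without any link. Whether any of them differs from 0 was not tested.

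A weight fitted to each cell from the 743 genes on the log scale, without hormones, differed from the hormone weight. Its median was 0.84 in dual cells, 0 in insulin-only cells and 1 in glucagon-only cells, and its mean in dual cells was 0.661. The single-hormone cells themselves set the means and the genes of the fit, so their medians of 0 and 1 are no check of it. The dual cells fell into a lower and an upper range on it: 17 lay at 0.17 or below, 46 at 0.73 or above and 1 at 0.56. The lower range held 14 of the 44 full-precision and 3 of the 20 rounded cells. The Spearman correlation of the fitted with the hormone weight over the dual cells was 0.51. Whether the lower and upper ranges mark different kinds of cell was not tested. Of the 743 genes, 223 reached 1 RPKM in 50% or more of the cells of the higher group. The highest fitted weight among insulin-only cells was 1. The dual cells rich in immune markers, with hormone sums of 586 and 7735 RPKM, had fitted weights of 0 and 0.95. On the linear scale the median position of the 743 genes was 0.32, below the mean hormone weight of 0.446.

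**Figure D5:**
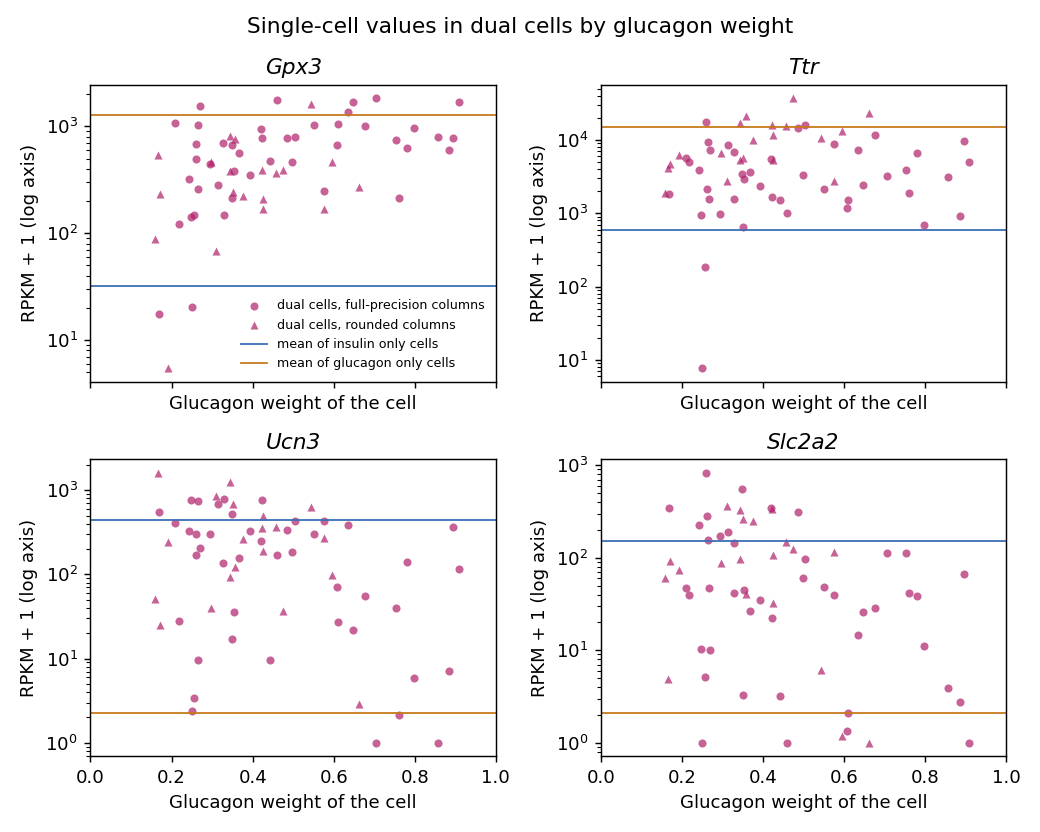
RPKM + 1 (log axis) of Gpx3, Ttr, Ucn3 and Slc2a2 in each of the 64 dual cells against the cell's glucagon weight, with circles for full-precision and triangles for rounded columns. Horizontal lines mark the means of the insulin-only and glucagon-only cells, and the Spearman correlations with the weight are 0.48 for Gpx3, 0.10 for Ttr, -0.29 for Ucn3 and -0.33 for Slc2a2.

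Some genes stood above both single-hormone groups. Of 6915 genes tested in both comparisons, 169 (2.44%) were past 2-fold above both means and 47 (0.680%) below both. Of the 169, 71 had the same sign in both number formats, and 6 of those also reached 1 RPKM in at least 50% of dual cells, among them Itch, Pim2, Ddx55, Phkg2 and Hbp1. This count was made after the values were seen. Phkg2, a catalytic subunit of phosphorylase kinase, ran from 0 to 334 RPKM in dual cells with a median of 2.31, against medians of 0 and 0.325 RPKM in insulin-only and glucagon-only cells. Its log2 ratios were 1.97, 2.02 and 1.99 to the insulin-only, glucagon-only and weighted means. It overlaps Ccdc189. Its values spread from 0 upward in all 3 groups, and insulin-only cells reached 249 RPKM.

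Genes named as highest over the weighted mean included Exosc9, Cul4b, Abhd14b, Nae1, Hbp1, Prpf8, Pim2 and Arl6ip4, at 1.43 (Exosc9) down to 1.04 (Arl6ip4). Those named as lowest were Nipsnap1 (-1.74), Ilf2, Ifi35, Alg11, Fam114a1, Zkscan3, Abi2, Orc3, Mier3 and Commd9 (-1.05). By cell medians 5 of these 10 lay above the weighted mean: Ilf2 (0.49), Orc3 (0.34), Alg11 (0.47), Abi2 (1.04) and Commd9 (0.70). Without the cells of all 3 groups that carried other types' markers Orc3 was at -0.20, inside 2-fold. Cul4b is a ubiquitin ligase scaffold and Prpf8 a core splicing factor. Lyz2 stood 3.05 above the weighted mean with 5 of 64 dual cells at 1 RPKM or more, and the immune list was at 3.44 in full-precision and -6.18 in rounded columns, and both dual cells with immune markers are in full-precision columns and held 99.9% of the Lyz2 of dual cells. The summed level of that list ran from 0 to 46300 RPKM in dual cells with a median of 2.01, against medians of 3.67 in insulin-only and 0 in glucagon-only cells.

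Some genes linked with the delta and PP cell types were high in both groups with glucagon RNA. Of 7 list genes tested against insulin-only cells, 3 were called higher, Pyy, Rbp4 and Etv1, beside 5.08% of all genes. None was called lower, while Fxyd6 (-0.25) and Sstr3 (-0.27) lay below 0. Against glucagon-only cells 5 of the 7 lay below 0 and 1 was called, Tspan8, a tetraspanin gene, higher at 1.34. That count is near the 19.5% of all genes called higher. Pyy, peptide YY, ran from 5.86 to 43393 RPKM in dual cells with a median of 2446, against medians of 10.8 RPKM in insulin-only and 5807 RPKM in glucagon-only cells. Its log2 ratio was 3.83 to insulin-only cells and 0.38 to the weighted mean. Etv1, an ETS transcription factor, had log2 ratios of 2.79 and 0.40, and Rbp4, retinol binding protein, of 2.88 and 0.06. None of the 7 list genes tested was past 2-fold from the weighted mean, a count near the 8.47% of all genes. At least 3 of the list's 11 genes outside the rule reached 10 RPKM in 54 dual cells, 75 insulin-only cells and 28 glucagon-only cells (84.4%, 19.0% and 84.8%).

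Most shared endocrine regulators were within 2-fold in each comparison, as were most of all genes. Of 16 pan-endocrine transcription factors, 11 were tested against insulin-only cells, with 0 called higher and 1 lower, beside 3.57% of all genes called lower. The 1 called lower was Mlxipl, the glucose-responsive factor ChREBP, at -1.04. None was called against the weighted mean, beside 8.47% of all genes. Against glucagon-only cells 2 of 11 were called higher, Mlxipl (3.04) and Foxo1 (1.10), beside 19.5% of all genes. Isl1 had means of 94.4 RPKM in dual, 68.3 in insulin-only and 120 in glucagon-only cells, and Pax6 of 40.1, 35.1 and 27.9 RPKM. Neurod1, at 24.4 RPKM, was slightly under both single-hormone means of 30.5 and 32.9 RPKM. Of 16 progenitor and dedifferentiation genes only 3 were high enough to test: Txnip, with means of 105, 99.7 and 99.1 RPKM, Vim and Serpina7. Vim, an intermediate filament gene of mesenchymal cells, was called lower in all 3 comparisons, at -2.91, -2.44 and -2.72 to the insulin-only, glucagon-only and weighted means. Its means were 1.77, 19.7 and 14.0 RPKM in dual, insulin-only and glucagon-only cells, of which 3 of 64, 29 of 395 and 3 of 33 held it at 1 RPKM. Serpina7 lay below 0 in all 3 comparisons, inside 2-fold, at -0.63, -0.82 and -0.72. Only 1 of 17 proliferation genes could be tested against insulin-only cells.

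Most granule genes were within 2-fold in each comparison, as were most of all genes. Of 17 granule and prohormone processing genes tested against insulin-only cells, 2 were called higher, Gnas (1.53), the stimulatory G protein subunit gene, and Pcsk1n (1.16), an inhibitor of the convertase PCSK1, and none lower, beside 5.08% of all genes called higher. Against glucagon-only cells 4 of 17 were called higher, Pcsk1, Sytl4, Scg2 (1.64) and Chgb (1.31), a count near the 19.5% of all genes. Against the weighted mean none was called, beside 8.47% of all genes, with a median of 0.03. Chga, chromogranin A, had means of 1114, 1295 and 840 RPKM in dual, insulin-only and glucagon-only cells, and Cpe, carboxypeptidase E, 1227, 1245 and 1288 RPKM.

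The genes of protein folding in the endoplasmic reticulum sat between the groups. Against insulin-only cells 22 of 23 tested lay below 0, of which only Edem1 (-1.16), a gene of misfolded protein disposal, was past 2-fold. Of all genes, 3.57% were called lower there. Against glucagon-only cells 21 of 23 lay above 0 and 10 were called higher, beside 19.5% of all genes. Against the weighted mean 1 was called, Trib3 (1.11), beside 8.47% of all genes. Trib3 was listed at 0 in every glucagon-only cell. Hspa5, the chaperone BiP, ran from 10.0 to 1506 RPKM in dual cells with a median of 381, against medians of 543 RPKM in insulin-only and 193 RPKM in glucagon-only cells. Its mean of 472 RPKM compares with an expected 478.

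Genes of glucose entry and excitation differed among themselves. Of 11 tested against insulin-only cells, none was called higher and 2 lower, beside 3.57% of all genes called lower. The 2 were Glp1r (-1.37), the GLP-1 receptor, and Pcx (-1.08), pyruvate carboxylase. Against glucagon-only cells 4 of 9 were called higher, beside 19.5% of all genes. The 4 included Slc2a2, G6pc2 (3.72) and the glucagon receptor gene Gcgr (3.33). Against the weighted mean 5 of 11 genes lay above 0 and 6 below. Of all genes, 10% were called lower against glucagon-only cells and 3.63% against the weighted mean. In the list this was 1 gene in each, Ffar1, the fatty acid receptor, at -1.74 and -1.48. Its means were 1.32, 4.43 and 6.77 RPKM in dual, insulin-only and glucagon-only cells, and only 1 glucagon-only cell held it at 1 RPKM. Abcc8 and Kcnj11, the channel subunits that close on ATP, had means of 69.6 and 13.9 RPKM in dual cells, 65.1 and 13.5 in insulin-only cells and 67.2 and 23.1 in glucagon-only cells. G6pc2, the islet glucose-6-phosphatase, had means of 584, 1040 and 43.5 RPKM and a ratio to the weighted mean of -0.03.

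Exocytosis and respiratory chain genes stayed within 2-fold, as did most of all genes. Of 15 exocytosis genes, 0 were past 2-fold in any of the 3 comparisons. Their medians were -0.15, 0.39 and 0.02 to the insulin-only, glucagon-only and weighted means. Of all genes, 8.65%, 29.5% and 8.47% were past 2-fold in the same order, so in the first and last a count of 0 is near that share. Of the 15, 11 lay below 0 against insulin-only cells and 14 above 0 against glucagon-only cells, a comparison in which the median of all genes was 0.14. Of 23 respiratory chain and ATP synthase genes, 0 were past 2-fold in any, with medians of -0.03, 0.02 and -0.03, and 13, 8 and 14 of them lay below 0. Here too a count of 0 is near the share of all genes in the first and last comparisons. Of 10 adhesion and gap junction genes tested against the weighted mean, 0 were called higher and 1 lower, with a median of -0.02. That count is near the 3.63% of all genes called lower. In this list Gjd2, the connexin 36 gene that couples beta cells, had means of 10.3, 17.2 and 0.68 RPKM. Cldn4, a tight junction gene, was at -1.23 to the weighted mean.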

How the data were processed

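The deposited RPKM table has 44448 genes and 1 column for each of 622 cells. The submitters' processing notes name CASAVA 1.8.2 and FastQC, and the build as GRCm38 or mm10. How reads were aligned, counted and annotated is not given in the sources used here. RPKM is relative within a cell, so a very abundant hormone lowers every other value of that cell. Per the labels' protocols, the SMARTer Ultra Low kit gave cDNA and Nextera XT the libraries. RefSeq for the same build gave a symbol to 39725 genes.

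Group means of RPKM were compared with a pseudocount of 1 RPKM, with no count model and no p-value. Ratios of RPKM gave back whole reads for 23117 of 23143 genes (100% of full-precision and 99.9% of rounded values whole within 0.05), which served for depth and thinning (9 cells were too shallow). Python 3.11.15, NumPy 2.4.6, SciPy 1.17.1 and pandas 2.3.3 were used.

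The members and gene lists were chosen with earlier results of these data known. Named genes were, for each comparison, the 10 highest and 10 lowest ratios among genes with a symbol, outside the 5 hormone genes, whose higher mean was 20 RPKM or more, detected at 1 RPKM in 50% or more of the cells on the higher side, with the same sign in both number formats. List members with large ratios, and the 5 highest and 5 lowest correlations with the glucagon weight, were also named. The alternatives varied the pseudocount, level filter, means or medians, number format, hormone thresholds, cell filters and weights. Some genes that met these rules are not reported here.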

Additional observations from a re-analysis of the deposited data

How the results depend on the processing

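Counts past 2-fold depended on how low genes were handled, and they are given as higher then lower, for the insulin-only, glucagon-only and weighted-mean comparisons. With a pseudocount of 10 RPKM they were 74 and 16, 304 and 144, and 41 and 22. Without a level filter they were 759 and 625, 2716 and 1227, and 754 and 610, and with a filter of 20 RPKM 80 and 39, 393 and 212, and 55 and 35. Cell medians gave 30 lower than insulin-only, 65 lower than glucagon-only cells, and 589 above and 7 below the weighted mean. Full-precision columns gave 532 above and 406 below the weighted mean. Rounded columns gave 974 higher and 1142 lower than insulin-only cells, 1585 lower than glucagon-only cells, and 972 above and 1095 below the weighted mean. With the second hormone at 25% or more, 542 were lower than insulin-only cells and 480 below the weighted mean, and without dual cells in which Sst or Ppy held 1%, 413 and 406. Matching on detected genes (18 dual cells against glucagon-only cells) gave 485, 1745 and 472 lower in the 3 comparisons. A fitted weight gave 591 above and 417 below. The share of dual cells was 6.58% at a second hormone of 25% and 7.91% in rounded columns, where the beta list position, with its genes chosen again in those columns, was 0.24. The cause of these shifts was not tested. Other listed counts stayed within 1.5 times.

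Of 840 values for named genes under these alternatives, 703 moved little, 129 moved further and 8 turned direction. All 8 came from cell medians: Fkbp11 to 0.032 against insulin-only cells, Ilf2 to 0.45 and Alg11 to 0.73 against glucagon-only cells, and, against the weighted mean, Ilf2 to 0.49, Orc3 to 0.34, Alg11 to 0.47, Abi2 to 1.04 and Commd9 to 0.70. The 703 values that moved little include 60 without a level filter and 60 with a filter of 20 RPKM. A level filter sets which genes are tested and leaves a gene's ratio as it was, so these values could not move. Named genes were chosen for the same sign in both number formats, so values from either format alone could not turn direction. The alternatives without cells of 3 or more other-type markers (ductal markers not counted), with genes detected in 50% of cells and with thinned list genes were added after seeing the data. No paired analysis was possible because the labels give 1 group. With 33 glucagon-only cells and 1 sample, low genes have no replicate check.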
